A study of Mus musculus with 12 samples.

Results

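The genes of hepatic alcohol and aldehyde oxidation were followed in bulk liver RNA-seq: 4 alcohol dehydrogenases (*Adh1*, *Adh4*, *Adh5* and *Adh7*), 4 aldehyde dehydrogenases (*Aldh2*, *Aldh1b1*, *Aldh3a2* and *Aldh9a1*) and both expressed aldehyde oxidases (*Aox1* and *Aox3*). They were taken by gene name, by a choice made with earlier results of these data known, and all 10 were found in both count tables, which share 20093 genes. Every one of them passed the filter on low counts in each comparison, and the lowest count of any of them in a library was 270 reads. Sequenced were 12 livers, 3 per group, all from male HuR flox/flox mice (both *Elavl1* alleles floxed) of the C57BL/6N strain. The labels describe an injection of virus at an age of 4 to 6 months. The chow WT and HFCF WT groups received AAV8-Tbg-null, and the chow HuRHep-/- and HFCF HuRHep-/- groups received AAV8-Tbg-Cre, whose Tbg promoter drives Cre in hepatocytes only, so that other liver cells keep the gene. The paper instead describes HuRHep-/- mice bred with an albumin-driven Cre, and younger mice at the time of its experiments than the labels have at injection, and the counts cannot tell these descriptions apart. HFCF groups ate a diet with 40 kcal% fat, 2% cholesterol and 20 kcal% fructose for 16 weeks. Chow groups ate normal chow for a time that the labels do not give, and the labels give no age at collection.

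Alcohol dehydrogenases oxidise alcohols to aldehydes with NAD+ as the electron acceptor, and aldehyde dehydrogenases carry the aldehydes on to carboxylic acids. In the liver this pair of steps clears ethanol, retinol, lipid-derived aldehydes and formaldehyde. Aldehyde oxidases are cytosolic molybdenum enzymes that pass electrons to oxygen and oxidise aldehydes as well as nitrogen heterocycles, including many drugs. HuR, the protein encoded by *Elavl1*, is an RNA-binding protein that attaches to U-rich and AU-rich stretches, mostly in 3′ untranslated regions.

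The targeted gene went against its label. *Elavl1* lay between 29.3 and 30.99 CPM, read counts scaled to the library's size, in the 3 chow WT livers and between 38.8 and 42.8 CPM in the 3 chow livers labelled HuRHep-/-. On HFCF it lay between 23.9 and 27.0 CPM in WT and between 32.2 and 34.2 CPM in the livers labelled HuRHep-/-. The log2 fold change was 0.41 on chow and 0.38 on HFCF (SE 0.068 and 0.072, adjusted p = 0.0219 and 0.0327 from limma with Benjamini-Hochberg adjustment over all genes). With single libraries left out, the log2 fold change stayed between 0.36 and 0.45. Its adjusted p passed on chow without WT replicate 2 or HuRHep-/- replicate 3 and on HFCF without WT replicate 3, and reached 0.105 and 0.121 in the other fits. Reads were counted over the whole gene, not by exon. Because of these values the groups are called livers labelled HuRHep-/-, and every direction of the genotype comparisons rests on that label.

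Total counts ran from 30071731 to 35949203 per library. Hepatocyte markers were present in every liver, with sums of 75120 to 126100 CPM over 8 genes. In bulk liver, fewer cells of a type and less RNA per cell cannot be told apart. Chow and HFCF libraries stand in separate tables and the labels name no batch, so diet and any batch between the tables cannot be told apart. The labels give no animal identifiers, and p-values measure the spread between these samples.

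Of the genes, 6 lie in 2 clusters of the GRCm38 genome (GENCODE positions). *Adh7* (138217760 to 138233382), *Adh1* (138260991 to 138290698), *Adh4* (138415466 to 138430892) and *Adh5* (138443093 to 138455499) follow each other on the plus strand of chromosome 3. *Aox1* (58029931 to 58106413) and *Aox3* (58113130 to 58200698) stand on the plus strand of chromosome 1, with 6716 bases between them. *Aldh9a1* is on chromosome 1 (167349991 to 167368532, plus strand), *Aldh1b1* on chromosome 4 (45799022 to 45804604, plus strand), *Aldh2* on chromosome 5 (121566027 to 121593824, minus strand) and *Aldh3a2* on chromosome 11 (61223417 to 61267464, minus strand). *Aldh1b1* has 2 exons in its main coding transcript and *Aldh2* has 13, while *Aox1* and *Aox3* have 35 each. Of the words of 31 bases in its coding transcript, *Adh1* shared 3.01% with transcripts of other genes, most of all with the pseudogene *Adh6-ps1*. No other member shared more than 0.524% with other genes. Annotated genes on the opposite strand overlap 6.09% of the exons of *Adh1*, 2.85% of those of *Adh7* and 2.54% of those of *Aldh2*. Counting was done by strand according to the study's methods.

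The upstream sequences of 4 members are shown because these genes carry the results: *Aldh1b1* differed most between the labelled genotypes, *Aldh3a2* and *Aox3* differed most between the diets, and *Aox1* is the neighbour of *Aox3* that did not pass any test. Each is the 250 bases before the RefSeq start site, on the strand of the gene, in GRCm38.p6. The windows are chr4:45798772-45799021 (plus strand) for *Aldh1b1*, chr11:61267187-61267436 (minus strand) for *Aldh3a2*, chr1:58112886-58113135 (plus strand) for *Aox3* and chr1:58029719-58029968 (plus strand) for *Aox1*. Capitals mark matches on either strand to the TATA box (TATAAA), the CCAAT box (CCAAT), the GC box (GGGCGG), the E-box (CACGTG), a nuclear receptor element (AGGTCA) and the AP-1 site (TGACTCA).
Aldh1b1: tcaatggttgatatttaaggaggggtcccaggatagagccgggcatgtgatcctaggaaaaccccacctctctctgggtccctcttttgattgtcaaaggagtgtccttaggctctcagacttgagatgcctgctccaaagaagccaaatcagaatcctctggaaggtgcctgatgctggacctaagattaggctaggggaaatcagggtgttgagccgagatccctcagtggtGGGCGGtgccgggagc
Aldh3a2: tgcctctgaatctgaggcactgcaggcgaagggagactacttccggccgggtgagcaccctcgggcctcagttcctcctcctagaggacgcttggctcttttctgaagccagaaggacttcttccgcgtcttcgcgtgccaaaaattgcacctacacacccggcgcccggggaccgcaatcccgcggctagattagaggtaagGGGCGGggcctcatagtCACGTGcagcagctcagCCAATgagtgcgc
Aox3: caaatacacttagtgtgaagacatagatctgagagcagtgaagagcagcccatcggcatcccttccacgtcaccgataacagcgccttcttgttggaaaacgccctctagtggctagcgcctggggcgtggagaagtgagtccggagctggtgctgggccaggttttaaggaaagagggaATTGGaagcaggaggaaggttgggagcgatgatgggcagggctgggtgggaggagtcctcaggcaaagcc
Aox1: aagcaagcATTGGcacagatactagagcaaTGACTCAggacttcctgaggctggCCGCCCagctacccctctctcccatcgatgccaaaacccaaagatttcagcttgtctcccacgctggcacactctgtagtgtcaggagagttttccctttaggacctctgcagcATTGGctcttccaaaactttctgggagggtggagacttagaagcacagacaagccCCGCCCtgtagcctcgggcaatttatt
No 2 marked matches overlap. The window of *Aldh1b1* holds 1 GC box, that of *Aldh3a2* a GC box, an E-box and a CCAAT box close to the start site, that of *Aox3* 1 CCAAT box, and that of *Aox1* 2 CCAAT boxes, 2 GC boxes and 1 AP-1 site. Of 32851 mouse promoters in the same table, 32.7% hold a GC box, 33.9% a CCAAT box, 6.02% an E-box, 4.46% an AP-1 site, 14.0% an AGGTCA and 12.4% a TATA box in windows of that length. A match of letters is a description and not a bound site.

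In their 3′ untranslated regions, 8 of the 10 members had at least 1 ATTTA, the core of AU-rich elements, beside 61.6% of 20693 protein-coding genes. *Adh1* and *Aldh2* had none, in 142 and 1967 bases. *Adh7* had 7 in 2179 bases (3.21 per kilobase) and was the only member with the longer TATTTAT, which 25.4% of the genes have. Per kilobase *Adh4* was highest, with 2 in 146 bases (13.7). *Aldh3a2* had 3 and *Aldh1b1* had 1.

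Scaled by length (RPKM, CPM per kilobase over the union of GENCODE exons), the order of the levels was steep. In chow WT livers *Adh1*, the class I enzyme that oxidises most ethanol in liver, stood first at 828 ± 106 RPKM (SD, n = 3). *Aldh2*, the mitochondrial enzyme that clears acetaldehyde, followed at 389 ± 12.4 RPKM. *Adh5* (80.6 ± 3.44) and *Aldh9a1* (79.7 ± 0.631) came next and did not differ beyond their SDs. *Adh4* (62.9 ± 0.738), *Aox3* (58.6 ± 6.07) and *Aldh3a2* (54.7 ± 6.02) followed, and no neighbours among these differed beyond their SDs. *Aldh1b1* (21.2 ± 4.34), *Aox1* (8.05 ± 1.00) and *Adh7* (4.203 ± 0.267) were lowest. *Adh7*, the class IV enzyme best known from stomach epithelium, was the lowest in all 4 groups. In HFCF WT livers *Aldh3a2* moved to the third place at 139.6 ± 25.1 RPKM, and in HFCF livers labelled HuRHep-/- *Aldh1b1*, at 61.5 ± 7.75 RPKM, was level within SDs with *Adh4* (64.9 ± 4.12) and *Adh5* (60.4 ± 1.48). The middle of the order depends on the length: with the transcript of the longest coding sequence, a choice made after the data were seen, *Adh5* in chow WT was at 272 ± 11.6 RPKM and *Aldh3a2* at 106.2 ± 11.7 RPKM. Together the 10 genes took from 0.461% to 0.521% of the reads of chow libraries and from 0.598% to 0.676% of HFCF libraries.

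**Figure D1:**
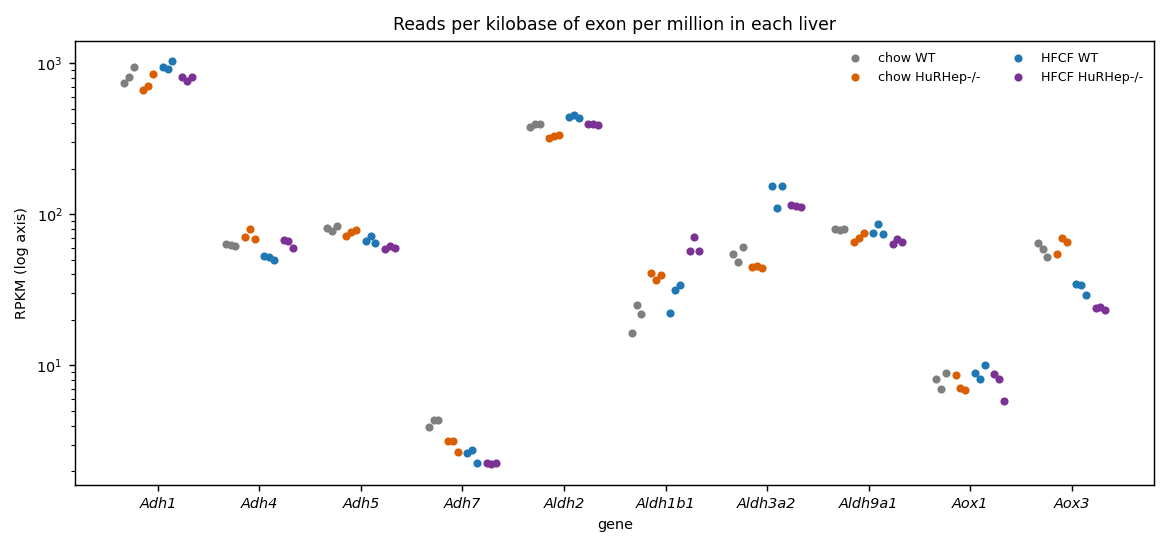
RPKM over the union of exons (log axis) of the 10 genes, each point 1 liver, coloured by group. *Adh1* and *Aldh2* lie above all others, *Adh7* lies lowest, and *Aldh1b1*, *Aldh3a2* and *Aox3* have the widest separation between groups.

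The first question is which of these genes differ between livers labelled HuRHep-/- and WT livers of the same diet. On chow, 2 of the 10 passed an adjusted p of 0.05, *Aldh1b1* upwards and *Adh7* downwards, beside 4.21% of 13526 genes tested. Only *Aldh1b1* was also a differentially expressed gene (DEG, which also needs a 1.5-fold change and 10 counts summed over each group), beside 2.23% of all genes. On HFCF, 3 of the 10 passed, *Aldh1b1* and *Adh4* upwards and *Aox3* downwards, beside 6.84% of 14295 genes, and *Aldh1b1* alone was a DEG, beside 3.66%. Groups did not overlap for 6 members on chow (29.5% of all genes) and for 8 on HFCF (36.8% of all genes) in the values scaled within each diet for these tests. In the CPM printed here, scaled over all 12 livers, they were 6 and 7 (28.2% and 35.9% of all genes), since *Adh7* overlapped on HFCF. The median log2 fold change of the members was -0.12 on chow and -0.23 on HFCF, beside a median of 0.0054 and -0.0011 over all genes, and the estimate was below 0 for 7 and 8 of them. The 2 genotype comparisons share no samples.

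*Aldh1b1*, a mitochondrial aldehyde dehydrogenase that acts on acetaldehyde and on retinal, was higher in the livers labelled HuRHep-/- on both diets. On chow it was at 37.9, 57.6 and 50.3 CPM in WT and at 93.5, 84.2 and 91.1 CPM in the livers labelled HuRHep-/-. On HFCF it was at 51.1, 73.0 and 78.3 CPM in WT and at 130.4, 162.0 and 131.8 CPM in the livers labelled HuRHep-/-. In both diets every liver labelled HuRHep-/- lay above every WT liver. The log2 fold change was 0.91 on chow (SE 0.14, adjusted p = 0.0209 from limma) and 1.07 on HFCF (SE 0.17, adjusted p = 0.0226), 1.88-fold and 2.10-fold. The call depended on single libraries: the adjusted p was 0.0696 without chow WT replicate 3, 0.0713 and 0.0864 without chow HuRHep-/- replicate 1 or 2, and on HFCF 0.0508 without WT replicate 1 and 0.0914, 0.0868 and 0.0660 without HuRHep-/- replicate 1, 2 or 3. In all left-out fits the log2 fold change lay from 0.74 to 1.05 on chow and from 0.89 to 1.19 on HFCF.

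*Aldh2*, the other mitochondrial acetaldehyde enzyme, had estimates of the opposite sign. It was at 1923, 2023 and 2041 CPM in chow WT and at 1635, 1690 and 1722 CPM in the chow livers labelled HuRHep-/-. On HFCF it was at 2243, 2327 and 2232 CPM in WT and at 2031, 2018 and 1985 CPM in the livers labelled HuRHep-/-. The groups did not overlap on either diet, with the livers labelled HuRHep-/- lower, but the log2 differences of -0.24 and -0.19 did not pass (SE 0.082 and 0.087, adjusted p = 0.137 and 0.196). Within a library, where scaling plays no part, there were 24.3 *Aldh1b1* reads per 1000 *Aldh2* reads in chow WT and 53.3 in the chow livers labelled HuRHep-/-, 2.20 times as many. The numbers on HFCF were 29.8 and 70.3, or 2.36 times as many. Groups did not overlap in either case (exact permutation test, two-sided, p = 0.1, the least that 3 against 3 can give, and 0.178 after Benjamini-Hochberg adjustment over 16 ratio tests).

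*Adh7* was lower in the chow livers labelled HuRHep-/-. It was at 14.8, 16.5 and 16.5 CPM in chow WT and at 12, 11.98 and 10.2 CPM in the livers labelled HuRHep-/-, without overlap. The log2 fold change was -0.48 (SE 0.10, adjusted p = 0.0444), but the adjusted p lay between 0.0735 and 0.134 whichever of the 6 libraries was left out. On HFCF the values of 9.95, 10.4 and 8.58 CPM in WT and 8.53, 8.40 and 8.62 CPM in the livers labelled HuRHep-/- differed by -0.19 on the log2 scale (SE 0.10, adjusted p = 0.253). *Adh7* is also a stomach gene, and stomach markers were counted beside it. Of 6 gastric epithelial markers, *Gkn1* and *Gkn2* are not in both tables, *Muc5ac* was at 0 in all WT livers, and the 4 in both tables, *Muc5ac* included, summed to 0.317 to 0.922 CPM in WT and 2.42 to 4.22 CPM in livers labelled HuRHep-/-. Most of the latter sum was *Atp4a*, the proton pump subunit, at 1.995 to 3.88 CPM. It was the only marker that could be tested and rose on both diets (log2 fold change 2.55 and 2.71, adjusted p = 0.00427 and 0.0180), at levels of 0.211 to 3.88 CPM over all livers. On HFCF that call was lost without WT replicate 1 or any HuRHep-/- replicate (adjusted p from 0.0508 to 0.0881). The part of stomach tissue in the values of *Adh7* was not tested.

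*Adh4*, the class II enzyme that acts on retinol and longer alcohols, was the other member that rose in a genotype comparison. On HFCF it was at 77.0, 75.3 and 72.0 CPM in WT and at 98.0, 97.0 and 87.2 CPM in the livers labelled HuRHep-/-, without overlap (log2 fold change 0.31, SE 0.070, adjusted p = 0.0454). Left-out fits gave 0.29 to 0.37, with adjusted p from 0.0660 to 0.155, so that any single library ended the call. On chow it was at 92.2, 91.2 and 90.1 CPM against 103.1, 115.5 and 99.2 CPM, again without overlap, with a log2 difference of 0.22 that did not pass (SE 0.072, adjusted p = 0.124).

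*Aox3*, the main hepatic aldehyde oxidase of mice beside *Aox1*, fell in the HFCF livers labelled HuRHep-/-. The HFCF WT livers were at 243.7, 240.2 and 205.6 CPM and those labelled HuRHep-/- at 169.6, 171.6 and 163.4 CPM, all below the lowest WT liver (log2 fold change -0.46, SE 0.082, adjusted p = 0.0290). The adjusted p was 0.0827 without HFCF WT replicate 1 and 0.118, 0.0967 and 0.0881 without HuRHep-/- replicate 1, 2 or 3. On chow the values overlapped, at 453.4, 414.4 and 368.1 CPM in WT and 383.5, 488.3 and 464.6 CPM in livers labelled HuRHep-/- (log2 difference 0.12, SE 0.11, adjusted p = 0.577).

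The remaining members did not pass in either genotype comparison. *Adh1* was at 1641 to 2107 CPM in chow WT and 1491 to 1881 CPM in chow livers labelled HuRHep-/-, with overlap, and at 2048 to 2309 CPM against 1693 to 1807 CPM on HFCF, without overlap (log2 differences -0.16 and -0.30, adjusted p = 0.494 and 0.0895). *Adh5*, the formaldehyde-oxidising class III enzyme, differed by -0.08 and -0.17 (adjusted p = 0.485 and 0.142). *Aldh9a1*, which serves carnitine synthesis, differed by -0.18 and -0.26 without overlap on either diet (adjusted p = 0.166 and 0.0802). *Aox1* overlapped on both diets, with differences of -0.08 and -0.29 (95% intervals -0.35 to 0.19 and -0.65 to 0.07). *Aldh3a2*, the fatty aldehyde dehydrogenase, was at 308.0, 272.8 and 340.5 CPM in chow WT and at 251.4, 257.1 and 247.1 CPM in the livers labelled HuRHep-/- (log2 difference -0.27, adjusted p = 0.109), and without chow WT replicate 2 it passed (-0.35, adjusted p = 0.0453). On HFCF, WT replicate 2 at 621.4 CPM stood apart from the other WT livers at 866.4 and 865.6 CPM and lay just below the livers labelled HuRHep-/- (647.8, 634.9 and 624.2 CPM). With all 6 livers the log2 difference was -0.30 (adjusted p = 0.186), and without that replicate it was -0.46 (adjusted p = 0.0220).

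**Figure D2:**
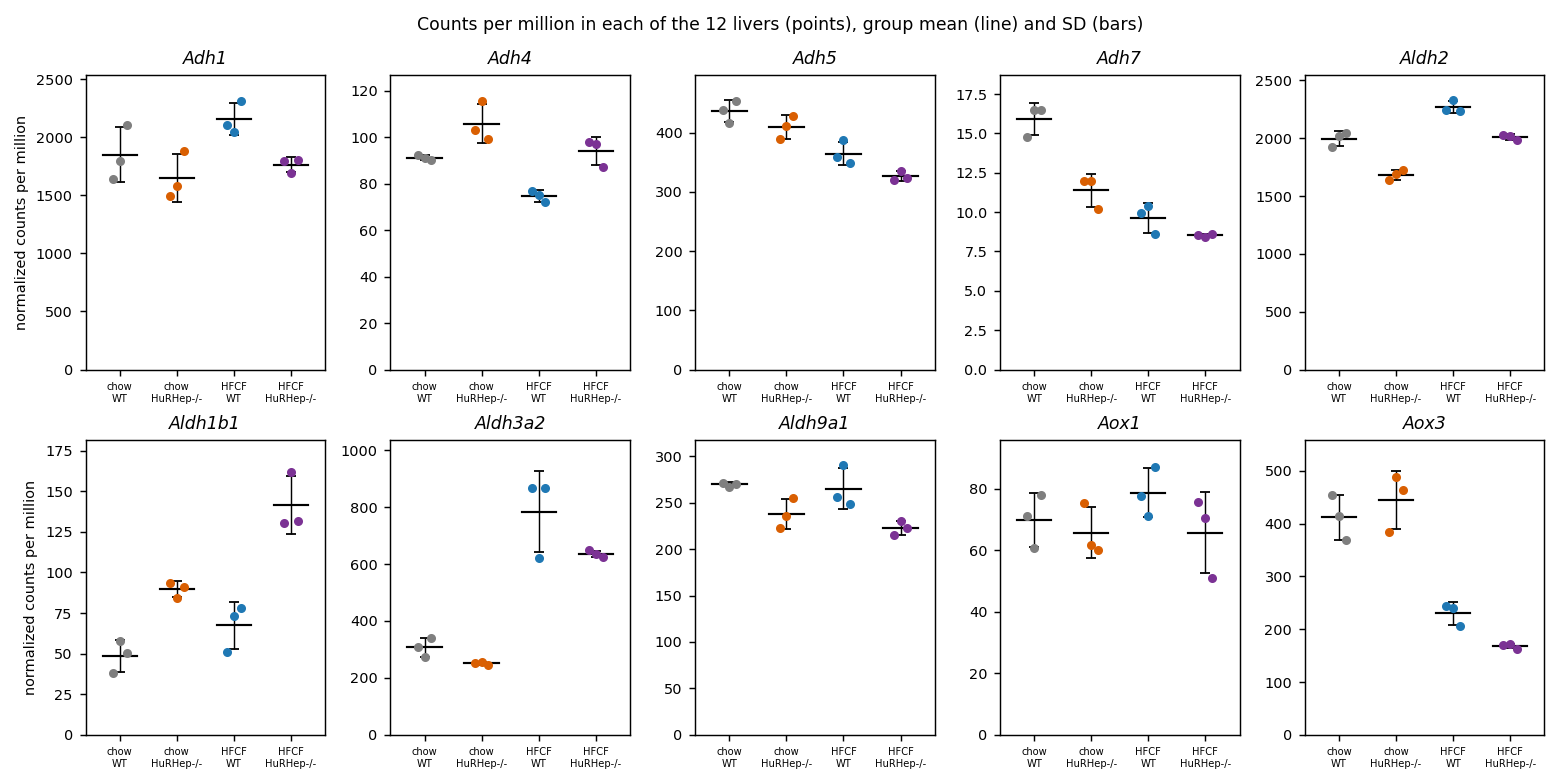
CPM of each gene in each of the 12 livers (points), with the group mean (line) and SD (bars), each vertical axis starting at 0. *Aldh1b1* is higher in livers labelled HuRHep-/- on both diets, *Aldh3a2* is higher and *Aox3* lower in all HFCF livers than in all chow livers.

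Markers of other liver cells also differed between the labelled genotypes. All 10 Kupffer cell and macrophage markers had estimates above 0 on both diets (median log2 fold change 0.47 and 0.58), and none passed the test. They summed to 173.9 to 226.5 CPM in chow WT, 247.4 to 352.2 CPM in chow livers labelled HuRHep-/-, 290.0 to 515.2 CPM in HFCF WT and 492.0 to 666.5 CPM in HFCF livers labelled HuRHep-/-. All 6 cholangiocyte markers had estimates above 0 on HFCF, and 3 passed (*Tspan8*, *Krt19* and *Krt7*, log2 fold change 2.07, 1.32 and 1.40). These 3 calls were lost without HFCF WT replicate 1 (adjusted p from 0.0508 to 0.0650) or any HFCF HuRHep-/- replicate (0.0833 to 0.122), and that of *Krt7* also without HFCF WT replicate 2 (0.0557) and in 1 fit of 12 libraries (0.0673). They summed to 36.1 to 79.8, 47.8 to 78.7, 39.3 to 89.3 and 136.9 to 248.7 CPM in the 4 groups in the same order. Of 8 stellate cell and fibroblast markers 7 had estimates above 0 on HFCF (median log2 fold change 0.83) and 1 rose (*Acta2*, 1.27, named after its value was seen). Of 8 hepatocyte markers 1 fell on HFCF (*Apob*, log2 fold change -0.49), a call lost without any HFCF library but WT replicate 2 (adjusted p from 0.0567 to 0.149). Of 9 pericentral hepatocyte genes, *Glul* rose on chow (0.85, adjusted p = 0.0131), and *Slc1a2* (-0.78) and *Cyp2e1* (-0.76) fell on HFCF, while none of 8 periportal genes passed on either diet. The call of *Glul* was lost without chow WT replicate 1 or 3 or HuRHep-/- replicate 2 (adjusted p from 0.0519 to 0.0618), and that of *Slc1a2* without HFCF WT replicate 1 or any HFCF HuRHep-/- replicate (0.0508 to 0.0911). No sinusoidal endothelial, neutrophil or lymphocyte marker passed, although all 4 neutrophil markers tested (median log2 fold change 0.72) and all 8 lymphocyte markers (0.94) had estimates above 0 on HFCF. The lymphocyte markers stood at sums of 2.69 to 4.89 CPM in WT and 6.53 to 8.84 CPM in the livers labelled HuRHep-/-. The part of these cells in the differences of the 10 genes was not tested.

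The second question is what the HFCF diet changed within each labelled genotype. In WT, 5 of the 10 genes passed, *Aldh3a2* upwards and *Aox3*, *Adh7*, *Adh4* and *Adh5* downwards, beside 24.2% of 14535 genes, and 3 were DEGs (9.41% of all genes). In the livers labelled HuRHep-/-, 6 passed, *Aldh3a2*, *Aldh1b1* and *Aldh2* upwards and *Aox3*, *Adh7* and *Adh5* downwards, beside 38.9% of all genes, and 3 were DEGs (19.1% of all genes). Groups did not overlap for 6 members in WT (37.6% of all genes) and 7 in the livers labelled HuRHep-/- (54.6% of all genes). The median log2 fold change of the members was 0.07 in WT and -0.05 in the livers labelled HuRHep-/-. Each of these comparisons shares its livers with the genotype comparisons above.

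*Aldh3a2* had the largest rise. It removes long-chain aldehydes that arise from fatty alcohols and sphingolipids. From the chow values above, all 3 WT livers on HFCF were higher (866.4, 621.4 and 865.6 CPM), 2.54-fold (log2 fold change 1.34, SE 0.12, adjusted p = 0.000102). The livers labelled HuRHep-/- rose 2.52-fold (log2 fold change 1.34, SE 0.12, adjusted p = 6.62e-05). All 12 left-out fits called the rise in each genotype, with log2 fold changes from 1.26 to 1.502.

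*Aox3* had the largest fall, 1.79-fold in WT (log2 fold change -0.84, SE 0.10, adjusted p = 0.000611) and 2.64-fold in the livers labelled HuRHep-/- (log2 fold change -1.40, SE 0.10, adjusted p = 3.31e-05). It was called in all 12 left-out fits of both comparisons. Its neighbour *Aox1* was at 71.2, 60.7 and 77.9 CPM in chow WT and at 77.9, 71.2 and 87.1 CPM in HFCF WT, with overlap. In the livers labelled HuRHep-/- it was at 75.5, 61.8 and 60.2 CPM on chow and at 75.9, 70.6 and 50.9 CPM on HFCF. The log2 difference of *Aox1* was 0.17 in WT and -0.01 in the livers labelled HuRHep-/- (95% intervals -0.15 to 0.50 and -0.34 to 0.31). Per *Aox1* read there were 5.98 ± 1.11 *Aox3* reads in chow WT and 2.96 ± 0.528 in HFCF WT (SD, n = 3). In the livers labelled HuRHep-/- the ratio was 6.90 ± 1.58 on chow and 2.63 ± 0.515 on HFCF. The ratios of the diets did not overlap in either genotype (exact permutation test, two-sided, p = 0.1, adjusted 0.178).

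**Figure D3:**
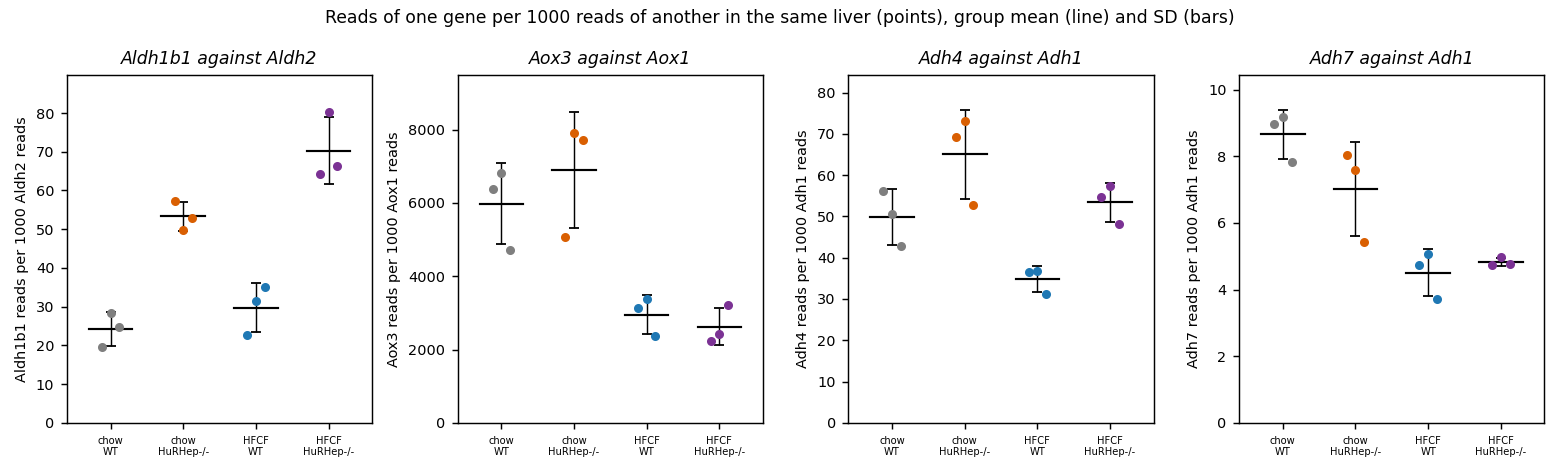
Reads of one gene per 1000 reads of another in the same liver (points), with the group mean (line) and SD (bars), for 4 pairs and axes starting at 0. The ratio of *Aldh1b1* to *Aldh2* separates the labelled genotypes, and that of *Aox3* to *Aox1* separates the diets.

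The alcohol dehydrogenases that passed all fell with HFCF. *Adh7* fell 1.65-fold in WT, to 9.95, 10.4 and 8.58 CPM (log2 fold change -0.73, SE 0.097, adjusted p = 0.000852), and 1.33-fold in the livers labelled HuRHep-/- (-0.41, adjusted p = 0.00660). *Adh5* was at 437.6, 416.5 and 453.5 CPM in chow WT and at 358.4, 386.8 and 348.7 CPM in HFCF WT (log2 fold change -0.26, SE 0.065, adjusted p = 0.0150), a call lost without chow WT replicate 3 (adjusted p = 0.0591) or HFCF WT replicate 3 (adjusted p = 0.0606). In the livers labelled HuRHep-/- *Adh5* went from 388.7, 411.9 and 427.6 CPM to 320.5, 335.7 and 323.9 CPM (log2 fold change -0.32, adjusted p = 0.00289). *Adh4* fell by 0.29 on the log2 scale in WT (SE 0.069, adjusted p = 0.0122), and its difference of -0.17 in the livers labelled HuRHep-/- did not pass (adjusted p = 0.0685). Without chow HuRHep-/- replicate 3 that difference passed (-0.22, adjusted p = 0.0477). *Adh1*, the highest in RPKM, differed by 0.23 and 0.10 with overlap in both genotypes (adjusted p = 0.177 and 0.504).

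Among the aldehyde dehydrogenases, *Aldh1b1* rose 1.57-fold with HFCF in the livers labelled HuRHep-/- (log2 fold change 0.65, SE 0.17, adjusted p = 0.0116). Its difference in WT was 0.47, with overlap (SE 0.17, adjusted p = 0.0658), and it passed without chow WT replicate 2 (adjusted p = 0.0327) or HFCF WT replicate 1 (adjusted p = 0.0172) and with upper-quartile scaling (0.52, adjusted p = 0.0455). *Aldh2* rose in the livers labelled HuRHep-/- (0.26, SE 0.076, adjusted p = 0.0195), which was lost without chow HuRHep-/- replicate 1 (adjusted p = 0.0700) or HFCF HuRHep-/- replicate 1 or 2 (adjusted p = 0.0643 and 0.0584). In WT the difference of 0.18 did not pass (adjusted p = 0.0974), although the groups did not overlap, and it passed with upper-quartile scaling (0.23, adjusted p = 0.0317). *Aldh9a1* differed by -0.03 and -0.09 (95% intervals -0.18 to 0.13 and -0.25 to 0.06).

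**Figure D4:**
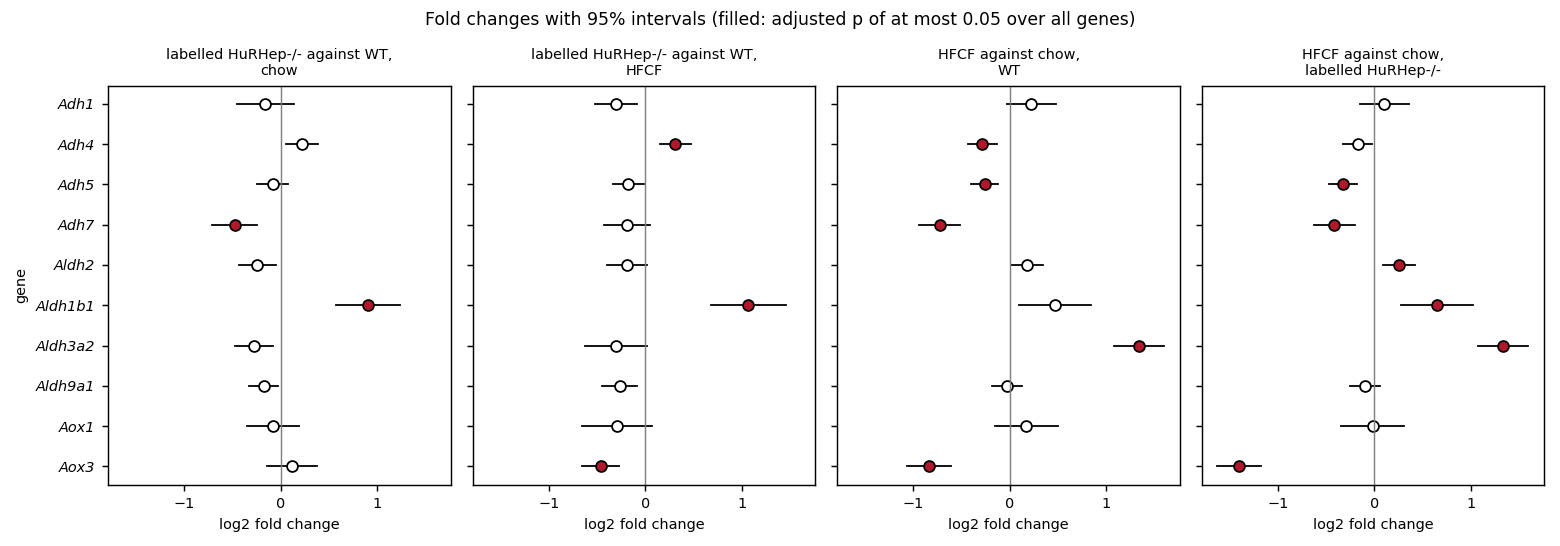
Log2 fold change (horizontal axis) of the 10 genes in 4 comparisons, with 95% intervals from limma. Filled points passed an adjusted p of 0.05, as *Aldh1b1* has in both genotype comparisons and *Aldh3a2*, *Aox3*, *Adh5* and *Adh7* have in both diet comparisons.

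Cell type markers also changed with the diet. Hepatocyte markers had estimates below 0 for all 8 genes in both genotypes, and 4 fell in WT and 5 in the livers labelled HuRHep-/-, among them *Hnf4a* (log2 fold change -0.51 and -0.47) and *Cps1* (-0.82 and -0.79). Their sum was 104000 to 126100 CPM in chow WT, 92650 to 100600 CPM in chow livers labelled HuRHep-/-, and 77840 to 83800 and 75120 to 77460 CPM on HFCF. Of the 10 Kupffer cell and macrophage markers, 6 rose in WT and 7 in the livers labelled HuRHep-/-, with *Lyz2* at 1.21 and 1.40. *Gpnmb*, a marker of lipid-laden macrophages, was at 10.5, 1.83 and 27.6 CPM in the 3 HFCF WT livers, lowest in the replicate 2 that was also lowest for *Aldh3a2*. In the HFCF livers labelled HuRHep-/- it was at 13.0, 12.6 and 34.9 CPM, highest in the replicate 3 that was lowest for *Aldh3a2*. In the livers labelled HuRHep-/- all 8 stellate cell and fibroblast markers rose, and 1 did in WT. All 6 cholangiocyte markers rose in the livers labelled HuRHep-/-, and none passed in WT, where 4 of 6 estimates were above 0. Stellate cell and fibroblast markers summed to 167.0 to 195.3 CPM in chow WT, 133.2 to 206.5 CPM in chow livers labelled HuRHep-/-, 169.5 to 404.4 CPM in HFCF WT and 395.6 to 506.7 CPM in HFCF livers labelled HuRHep-/-. Of the lymphocyte markers 3, of the neutrophil markers 1 (*Csf3r*) and of the endothelial markers 1 (*Pecam1*) passed upwards in the livers labelled HuRHep-/-. None passed in WT, where 2 of 8, 1 of 4 and 3 of 8 estimates were above 0, with *Csf3r* at 0.78 (adjusted p = 0.0583 from limma). No marker passed the interaction test given below, and 0% of all genes did. Periportal hepatocyte genes fell in 5 of 8 cases in WT and in 4 of 8 in the livers labelled HuRHep-/-. Among the latter, the call of *Gls2* was lost without chow or HFCF HuRHep-/- replicate 3 (adjusted p = 0.0814 and 0.0804). Pericentral genes split, 2 up and 1 down of 9 in WT and 1 up and 4 down in the livers labelled HuRHep-/-. The part of these cells in the differences of the 10 genes was not tested.

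The third question is whether the difference between labelled genotypes itself differs between the diets. In the interaction term of limma over all 12 livers none of the 10 genes passed, and 0% of 14535 genes did. At an unadjusted p under 0.05 there were 2083 genes, 2 of them members. These are *Aox3*, with an interaction of -0.56 on the log2 scale (SE 0.15, adjusted p = 0.167 from limma), and *Adh7*, with one of 0.31 (SE 0.14, adjusted p = 0.332 from limma). The intervals for the other members are wide. For *Aldh1b1* the difference of the genotype effects was 0.18, with a 95% interval from -0.35 to 0.71, and for *Aldh3a2* it was -0.01, with an interval from -0.38 to 0.36.

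The nearest genes in pattern were sought for the 3 members with the widest range of group means, by the root mean square difference of centred log2 CPM over the 12 livers, among 10184 genes whose normalized count averaged 100 or more. For *Aldh3a2*, whose own spread around its mean was 0.70, they were *Fitm1* (0.20), *S100a10* (0.22) and *Acaa1b* (0.22). For *Aldh1b1* (own spread 0.61) they were *Dnph1* (0.19), *Rhbg* (0.21) and *Gm38392* (0.27). For *Aox3* (own spread 0.59) the nearest genes included *C8a* and *Smim13*, both at 0.19. *Fitm1* acts in lipid droplet formation, *Acaa1b* in peroxisomal fatty acid oxidation, *Rhbg* transports ammonium and *C8a* is a complement component.

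Other genes of the same chemistry were taken from 5 lists made by name. In livers labelled HuRHep-/- 4 of 36 tested (11.1%, beside 4.21% of all genes) passed on chow, all downwards, and 11 of 39 (28.2%, beside 6.84%) on HFCF, 10 of them downwards. Over all genes 310 of those that passed were higher and 260 lower on chow, and 414 higher and 564 lower on HFCF. These list counts rest on single libraries: on chow 0 to 3 genes passed with 1 library left out (0 without WT replicate 3 or HuRHep-/- replicate 1 or 2, 1 without WT replicate 1 and 2 without WT replicate 2). On HFCF 0 to 9 passed (0 without WT replicate 1 or any HuRHep-/- replicate and 6 without WT replicate 2). With the diet 6 of 39 (15.4%, beside 24.2% of all genes) passed in WT, 3 in each direction (4 to 11 with 1 library left out, the latter without HFCF WT replicate 2), and 19 of 39 (48.7%, beside 38.9%) in livers labelled HuRHep-/-, 9 upwards and 10 downwards (10 to 20 with 1 left out, with 10, 11 and 12 without HFCF HuRHep-/- replicate 1, HFCF HuRHep-/- replicate 2 and chow HuRHep-/- replicate 3). Of 4 other *Adh* genes, 2 could be tested, and *Adh6-ps1* fell on chow and on HFCF (log2 fold change -1.11 and -1.03, adjusted p = 0.0495 and 0.0292) and with HFCF in WT and in livers labelled HuRHep-/- (-1.09 and -0.99). The chow call was lost without a filter (adjusted p = 0.0507), with voom weights (0.0509) and without any library but HuRHep-/- replicate 3 (0.0618 to 0.156). The HFCF call was lost without WT replicate 1 or any HuRHep-/- replicate (0.0724 to 0.122). As given above, *Adh6-ps1* shares sequence with *Adh1*. It was at 52.5, 65.7 and 37.0 CPM in chow WT and at 17.1, 24.8 and 29.4 CPM in the chow livers labelled HuRHep-/-, without overlap.

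Of 16 other *Aldh* genes, 12 were tested on chow, and 1 fell and none rose. *Aldh1a1*, the cytosolic retinal dehydrogenase, was at 1094, 1070 and 1070 CPM in chow WT and at 754.9, 809.5 and 722.6 CPM in livers labelled HuRHep-/- (log2 fold change -0.50, SE 0.075, adjusted p = 0.0182). On HFCF 13 were tested and 3 fell, *Aldh1a1* (-0.52, adjusted p = 0.0418), *Aldh5a1* (-0.43, adjusted p = 0.0189), which oxidises succinic semialdehyde, and *Aldh6a1* (-0.30, adjusted p = 0.0454) of valine breakdown. The call of *Aldh1a1* on HFCF was lost with upper-quartile factors (adjusted p = 0.0599) and without any library but WT replicate 2 (0.0521 to 0.149), and that on chow without WT replicate 1 or 3 or HuRHep-/- replicate 1 or 2 (0.0656 to 0.0702). That of *Aldh5a1* on HFCF was lost without WT replicate 1 or any HuRHep-/- replicate (0.0628 to 0.095). *Aldh3b1* rose (0.72, adjusted p = 0.0428). *Aldh3b1*, *Aldh6a1*, *Aldh1l1* and *Aldh1a2*, as well as *Esd*, *Cbr4*, *Akr1b10*, *Akr1b8* and *Akr7a5* below, were named after their values were seen, to complete the counts. With the diet *Aldh1a1* rose and *Aldh1l1*, of folate metabolism, fell in both WT (0.41 and -0.46) and livers labelled HuRHep-/- (0.40 and -0.39). In the latter *Aldh1a7* (0.51, adjusted p = 0.00473) and *Aldh1a2* (1.39, adjusted p = 0.0215) rose too, and *Aldh8a1* (-0.40, adjusted p = 0.00821), *Aldh6a1* (-0.25) and *Aldh5a1* (-0.18) fell. That call of *Aldh5a1* was lost with upper-quartile factors (adjusted p = 0.159), with at least 10 counts in every library (0.0606) and in 5 of 12 left-out fits (0.0506 to 0.0921).

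Of 9 genes of molybdenum enzymes and of the cofactor that *Aox1* and *Aox3* need, 7 were tested. None passed on chow between genotypes or in WT between diets. *Gphn*, which completes cofactor synthesis, fell in the HFCF livers labelled HuRHep-/- against HFCF WT (-0.59, adjusted p = 0.0350). That call was lost without HFCF WT replicate 1 or any HFCF HuRHep-/- replicate (0.0606 to 0.131). *Gphn* also fell with the diet in livers labelled HuRHep-/- (-0.58, adjusted p = 0.00152). *Mocs1*, the first step of the cofactor, fell there as well (-0.33, adjusted p = 0.0214), which was lost without chow or HFCF HuRHep-/- replicate 3 (0.0620 and 0.0755). *Suox*, the sulfite oxidase, rose (0.25, adjusted p = 0.0477), a call lost without a filter (adjusted p = 0.0886) and in 9 of 12 left-out fits (0.0515 to 0.168).

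Of 6 genes of other ethanol and acetate metabolism, *Acss2*, the cytosolic acetyl-CoA synthetase, fell on chow from 129.0, 186.0 and 221.1 CPM in WT to 90.5, 88.7 and 93.5 CPM in livers labelled HuRHep-/- (log2 fold change -0.93, SE 0.17, adjusted p = 0.0306). On HFCF, *Cat*, the catalase that oxidises some ethanol in peroxisomes, fell (-0.51, adjusted p = 0.0334), and so did *Cyp2e1*, the microsomal ethanol-oxidising cytochrome (-0.76, adjusted p = 0.0464), at 7748, 8749 and 7670 CPM in WT and 4289, 4388 and 5905 CPM in the livers labelled HuRHep-/-. Upper-quartile factors (adjusted p = 0.0542) or leaving out any 1 library (0.0599 to 0.182) ended the call of *Cyp2e1*, and leaving out any chow library but WT replicate 1 ended that of *Acss2* (0.0543 to 0.132). The call of *Cat* on HFCF was lost without WT replicate 1 or any HuRHep-/- replicate (0.0864 to 0.134). With the diet in WT *Acss2* fell (-0.93, adjusted p = 0.0132, lost without replicate 3 of chow WT or HFCF WT at 0.0544 and 0.0545) and *Acss3* rose (1.28, adjusted p = 0.000742). In livers labelled HuRHep-/- *Cat* (-0.47) and *Cyp2e1* (-0.60, lost without HFCF HuRHep-/- replicate 1 or 2 at adjusted p = 0.0605 and 0.0519) fell, and *Esd*, which hydrolyses S-formylglutathione, the product of *Adh5*, rose (0.27, adjusted p = 0.0184).

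Of 11 aldehyde and carbonyl reductases, which turn aldehydes back to alcohols, 1 fell on chow and 3 fell on HFCF in livers labelled HuRHep-/-, and none rose. *Dcxr*, which reduces xylulose, passed on both diets (-0.38 and -0.35, adjusted p = 0.0497 and 0.0449), and *Dhrs4*, a retinal reductase, and *Cbr4* on HFCF (-0.31 and -0.35, adjusted p = 0.0362 and 0.0426). The call of *Dcxr* on chow was lost with RLE factors (adjusted p = 0.0519), no filter (0.0599), voom weights (0.0535) and without any library but HuRHep-/- replicate 3 (0.0604 to 0.177). On HFCF it was lost with upper-quartile factors (0.0516), no filter (0.0503) and without WT replicate 1 or any HuRHep-/- replicate (0.0874 to 0.155). Upper-quartile factors also ended the call of *Dhrs4* (0.0507), as did leaving out WT replicate 1 or 2 or any HuRHep-/- replicate (0.0523 to 0.133). With the diet 1 rose and none fell in WT, and 4 rose and 1 fell in livers labelled HuRHep-/-. *Akr1b3*, aldose reductase, rose in WT (0.56, adjusted p = 0.00590) and in livers labelled HuRHep-/- (0.46, adjusted p = 0.00955). *Cbr3* rose in the livers labelled HuRHep-/- from 0.783, 0.526 and 0.462 CPM to 8.65, 4.2 and 3.42 CPM (log2 fold change 3.08, adjusted p = 0.00134). *Akr1b10* (0.76) and *Akr1b8* (0.50) rose and *Akr7a5* (-0.14) fell there as well. No gene of these 5 lists passed the interaction test.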

How the data were processed

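Livers of 12 mice, 3 per group as the labels give them, were compared. The authors used CLC Genomics Workbench to align by strand to GRCm38.p6 and deposited raw counts per gene in 2 tables, 1 for each diet, without normalization. The deposited counts are whole numbers written as text, with commas in 21506 chow and 23123 HFCF values, which were removed. Log2 CPM from these counts was tested, and no count model was run. No per-sample column was left unmapped. Gene names turned into dates (23 and 27) were replaced through their identifiers.

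Counts were scaled with TMM factors (trims of 0.3 and 0.05) and turned into log2 CPM with a pseudocount of 0.5. Fold changes on that scale understate changes of low genes. A gene was tested with 15 counts in total and, in 3 or more libraries, a CPM equal to 10 counts at median depth. The tests were limma with a variance trend and Benjamini-Hochberg adjustment, within 6 libraries for genotype and over all 12, for genes in both tables, for diet and interaction (R 4.3.3, limma 3.58.1, Python 3.11.15). Fits were tested on simulated data. Depth was 30071731 to 35949203 counts per library, and no member had under 270 reads.

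The members and gene lists were chosen with earlier results of these data known. Genes named beside the members were *Elavl1*, up to 4 called genes per pathway and marker list by smallest p, and the 3 nearest genes of each of 3 members, of which 1 is not reported here. Alternatives tried were other scaling factors (RLE, upper quartile), no filter, at least 10 counts in every library, a pseudocount of 2, voom weights, a replicate block, 12 libraries in 1 fit, DEG criteria, the longest transcript and leaving out each library. The length of the coding transcript was added after the data were examined.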

Additional observations from a re-analysis of the deposited data

How the results depend on the processing

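With 3 livers per group, an exact test of 1 value cannot give a p under 0.1. Depth limits low genes such as *Cbr3*, at 0.462 CPM in 1 chow liver. DEG criteria in place of an adjusted p alone left 1 of 2 members on chow, 1 of 3 on HFCF, 3 of 5 with diet in WT and 3 of 6 with diet in livers labelled HuRHep-/-. Of 370 member fold changes under other settings, 357 kept their direction and side of the threshold, 3 lost it, 5 gained it and 5 turned sign. Those that turned sign had not passed the test: upper-quartile factors gave an interaction of 0.0235 for *Aldh3a2* and diet differences of 0.0214 for *Aldh9a1* in WT and 0.065 for *Aox1* in livers labelled HuRHep-/-, and at least 10 counts in every library gave 0.00958 for *Aldh3a2* and 0.0221 for *Aox1*. The cause was not tested.

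Pathway list genes passing in the genotype comparison on chow, 4 in all, were 2 under each of no filter, voom weights and the replicate block. On HFCF, 11 in all, they were 5 with upper-quartile factors and 7 without a filter and with the replicate block. The labels do not say whether replicate numbers pair the livers. The correlation of same-numbered deviations ran from -0.136 to 0.21. It was not computed for differently numbered livers, so it cannot settle the pairing. Under the replicate block, 1 member passed on chow (*Adh7* lost, adjusted p = 0.0722), 3 on HFCF, 0 in the interaction, 6 with diet in WT (*Aldh1b1* gained, adjusted p = 0.0350) and 7 with diet in livers labelled HuRHep-/- (*Adh4* gained, adjusted p = 0.0447). Without a filter *Adh4* on HFCF (adjusted p = 0.0667) and *Aldh2* with diet in livers labelled HuRHep-/- (0.0636) did not pass, and in 1 fit of 12 libraries *Aldh9a1* passed on HFCF (0.0463). Upper-quartile factors added *Aldh1b1* (adjusted p = 0.0455) and *Aldh2* (0.0317) with diet in WT.

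The replicate block also ended the calls of *Dcxr* (adjusted p = 0.0502) and *Adh6-ps1* (0.0667) on chow, of *Cyp2e1* (0.0634), *Aldh1a1* (0.0571) and *Apob* (0.0563) on HFCF and of *Suox* (0.0664) with diet in livers labelled HuRHep-/-.

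With 1 library left out, members passing ran from 0 to 2 on chow (0 without WT replicate 3 or HuRHep-/- replicate 1 or 2, 1 without WT replicate 1 or HuRHep-/- replicate 3), from 0 to 3 on HFCF (0 without WT replicate 1 or any HuRHep-/- replicate), stayed at 0 in the interaction, and ran from 4 to 6 with diet in WT and from 5 to 7 in livers labelled HuRHep-/-. List genes passing ran from 0 to 3 on chow, 0 to 9 on HFCF, 4 to 11 with diet in WT and 10 to 20 in livers labelled HuRHep-/-. Interactions ran from -0.00623 to 0.35 for *Aldh1b1*, -0.17 to 0.0759 for *Aldh3a2* and -0.11 to 0.00248 for *Aldh9a1*, and diet differences from -0.0938 to 0.0171 for *Aldh9a1* in WT and from -0.13 to 0.16 for *Aox1* in livers labelled HuRHep-/-. Of the left-out values of other named genes, 119 lost the threshold and 721 did not.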
